A study of Mus musculus with 6 samples.

Results

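The muscarinic acetylcholine receptors are the G protein-coupled receptors for acetylcholine, and the mouse genome encodes them in 5 genes, Chrm1 to Chrm5. All 5 were taken by their symbols from the 32285 genes of the deposited matrices, and they are described here in 21442 cells of autonomic ganglia from mouse pups. Stellate, coeliac, lumbar, sphenopalatine and pelvic ganglia were dissected from pups of both sexes at postnatal day 5 that carried a Cre driver and the reporter RosatdT, and their cell suspensions were sequenced in droplets, with no sort described. Cre turns on the red reporter tdT in the cells in which the driver is active, and every library carried both, so that no library without the transgenes served as a control. The stellate, coeliac and lumbar ganglia are sympathetic, the sphenopalatine ganglion is parasympathetic, and the pelvic ganglion mixes noradrenergic and cholinergic neurons. Each ganglion gave 1 library, except the pelvic ganglion with 2. The stellate, sphenopalatine and pelvic_1 libraries formed round 1, with chemistry version 2, and the coeliac, lumbar and pelvic_2 libraries formed round 2, with version 3 and another sequencing facility. Ganglion and round can therefore be told apart for the pelvic ganglion only.

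Preganglionic axons excite autonomic neurons through nicotinic receptors for acetylcholine, and muscarinic receptors add slower responses. Chrm1, Chrm3 and Chrm5 couple to Gq proteins, which activate phospholipase C, release calcium from internal stores and close the M-type potassium channel that Kcnq genes encode. Chrm2 and Chrm4 couple to Gi and Go proteins, which inhibit adenylyl cyclase, open Kcnj potassium channels and restrain calcium channels. Both receptors also act as autoreceptors on cholinergic endings. Chrm3 is also the receptor of glands and of smooth muscle, and in endothelium it is known for raising nitric oxide.

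The files listed 113352559 UMIs (unique molecular identifiers, 1 per captured RNA molecule) in the stellate library, and between 39353313 and 99928989 in the others. Clustering of each library without the receptor genes gave 7323 neurons, 8262 glia, 728 endothelial cells, 615 mural cells (the pericytes and smooth muscle cells of vessels) and 3281 fibroblasts. The 10 neuron markers together held 19276 to 25451 counts per 1000000 UMIs (CPM) in neurons of the 6 libraries and 872 to 3796 CPM in glia, and the 10 endothelial markers held 6182 to 7525 CPM in endothelial cells and 34.3 to 51.1 CPM in neurons. Neurons were deeper in round 2, with a median of 60833 to 104751 UMIs per neuron against 25556 to 38074 in round 1. At most 49 barcodes were shared by any pair of libraries, 1.06% of the smaller one.

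The genes were located with the GENCODE M21 annotation of GRCm38, in which each receptor has its coding sequence in 1 exon. Chrm1 lies on chromosome 19 at 8663789-8683587, plus strand, and Chrm2 on chromosome 6 at 36388084-36528414, plus strand. Chrm3 lies on chromosome 13 at 9875486-10360847, minus strand, and overlaps several same-strand annotated genes, among them Gm47405. Chrm4 lies at 91927249-91928688, plus strand, and Chrm5 at 112479171-112480769, minus strand, both on chromosome 2. The models of Chrm4 and Chrm5 have 0 bases after the stop codon, as do 3.81% of 21842 protein-coding genes, whereas those of Chrm1, Chrm2 and Chrm3 have 4272, 3804 and 1743. Since the reads of these libraries come from the 3′ end of the RNA, molecules of Chrm4 and Chrm5 that end beyond their models would not be counted, and low counts of these 2 genes do not show that they were not transcribed.

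Chrm1 and Chrm2 were found mainly in neurons. Of 11433 Chrm1 UMIs in all cells kept, 94.5% lay in neurons, and of 15639 Chrm2 UMIs 94.99% did. Chrm3 was much sparser, with 658 UMIs, of which 80.4% lay in neurons and 15.5% in endothelial cells, a class that held only 728 cells. Neurons held most UMIs of all genes as well, 322916328 against 52589174 in glia and 39240291 in fibroblasts. Endothelial cells held 12884590 and mural cells 4309817. A high share in neurons therefore reflects their depth and number too, and levels per UMI are given below. Chrm4 had 16 UMIs and Chrm5 had 7.

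Chrm1, the receptor that couples muscarinic input to the M-type channel, stood at 27.9 CPM in stellate neurons, 24.7 in coeliac, 24.8 in lumbar, 51.3 in pelvic_1, 29.5 in pelvic_2 and 42.5 in sphenopalatine neurons. In glia, the satellite and Schwann cells of the ganglia, it lay between 1.42 and 3.40 CPM, so that all 6 libraries had higher neurons and the classes did not overlap. The share of all genes that separate the classes in this way was not computed. With the library as a block, edgeR's quasi-likelihood test put Chrm1 4.18 ± 0.31 higher (log2, SE, n = 6 libraries) in neurons than in glia, with an adjusted p of 9.2e-12. It also put neurons above endothelial cells by 4.66 (adjusted p = 1.1e-10), above mural cells by 4.46 (adjusted p = 2.3e-08) and above fibroblasts by 5.01 (adjusted p = 2.3e-12).

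Chrm2, the receptor that inhibits through Gi and Go, stood at 31.8 CPM in stellate neurons, 64.0 in coeliac, 72.9 in lumbar, 12.3 in pelvic_1, 45.8 in pelvic_2 and 50.5 in sphenopalatine neurons. In glia it lay between 1.13 and 4.37 CPM, again below every neuronal value. The log2 difference was 4.35 ± 0.34 between neurons and glia (adjusted p = 1.9e-11), 4.31 against endothelial cells (adjusted p = 4.6e-10), 5.16 against mural cells (adjusted p = 2.4e-08) and 4.89 against fibroblasts (adjusted p = 8.2e-12). Pelvic_1 neurons were thus both the highest for Chrm1 and the lowest for Chrm2.

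Chrm1 and Chrm2 were not shown above free RNA in glia. RNA released during dissociation enters all droplets, and the 10 neuron markers reached a median of 3.02% to 17.5% of their neuronal level in the glia of the 6 libraries. Glial Chrm1 reached 4.80% to 12.2% of the neuronal level and Chrm2 2.48% to 13.7%, compared with that range for the markers. Within libraries, glial Chrm1 was below the marker median in round 1. It was above it in coeliac (6.74% against 4.61%), lumbar (6.30% against 4.18%) and pelvic_2 glia (4.80% against 3.02%). Chrm2 was above the median in pelvic_1 only (9.43% against 7.51%). Neither receptor exceeded the highest marker in the glia of any library. In round 2 that marker stood far above the median, at 25.8% in coeliac, 18.6% in lumbar and 21.6% in pelvic_2 glia. Whether it measured free RNA alone was not tested, so this limit does not decide the round 2 values of Chrm1. Endothelial cells held 19 UMIs of Chrm1 and 29 of Chrm2, and mural cells 8 and 5. These counts are small, and expression was not separated from free RNA with them. In lumbar endothelial cells Chrm2 reached 8.80% of its neuronal level on 8 UMIs, above the 3.65% of the highest neuron marker. In the other libraries endothelial Chrm2 did not exceed the highest marker. Endothelial Chrm1 exceeded the highest marker in the lumbar (6.47% against 3.65%, 2 UMIs) and sphenopalatine libraries (13.5% against 12.7%, 11 UMIs). Fibroblast Chrm2 did so in pelvic_1 (8.40% against 5.12%, 8 UMIs) and pelvic_2 (4.78% against 1.95%, 23 UMIs). Fibroblast Chrm1 did so in lumbar (2.87% against 1.74%, 3 UMIs) and pelvic_2 cells (3.22% against 1.95%, 10 UMIs). The other libraries did not, and mural values above it rested on at most 4 UMIs. Whether any of these values came from expression was not tested.

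Chrm3, the Gq-coupled receptor of glands and smooth muscle, followed another pattern. Its level was 0.0121 CPM in stellate neurons (1 UMI in 2936 neurons), 0.748 in coeliac, 0.0703 in lumbar, 4.91 in pelvic_1, 5.31 in pelvic_2 and 1.46 in sphenopalatine neurons. Endothelial cells stood at 0.934, 2.24, 1.60, 10.4, 13.0 and 14.1 CPM in the same order, and were higher than the neurons of their own library in all 6. The ratio of endothelial cells to neurons was 2.11 (95% interval 1.42 to 3.06) in pelvic_1, 2.45 (1.65 to 3.53) in pelvic_2 and 9.65 (6.08 to 14.8) in the sphenopalatine library. In the stellate, coeliac and lumbar libraries the endothelial value rested on 2, 4 and 2 UMIs, and in the coeliac library the interval of the ratio, 0.712 to 9.70, included 1. All such intervals cover counting error only.

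Across libraries, Chrm3 was lower in neurons than in endothelial cells, with a log2 difference of -2.16 ± 0.53 (adjusted p = 0.00072), or 4.47-fold. In round 2 alone the difference was -1.64 with an adjusted p of 0.096, and without the library block -1.70 with an adjusted p of 0.071, in a range of 0.00056 to 0.096 over 15 alternatives. Markers of neurons held 419 to 1915 CPM in endothelial cells, and red cell and other blood markers 3667 to 24595 CPM, so that these droplets held RNA of other cells. The neuron markers reached a median of 0.886% to 9.15% of their neuronal level in endothelial cells. The part of such RNA in the Chrm3 values was not tested.

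In vessels Chrm3 lay on the endothelial side. Mural cells had 1 Chrm3 UMI in all, in pelvic_1, and 0 in the other 5 libraries, against 102 UMIs in endothelial cells. In CPM the endothelial sum was 34.1 times that of mural cells, with a 95% interval of 5.99 to 1361. The edgeR difference, mural minus endothelial cells, was -5.77 ± 1.23 (log2, adjusted p = 0.00049). In round 2 alone it was -9.64 with an adjusted p of 0.077, in a range of 0.00042 to 0.077 over 15 alternatives, and such fitted values of a class at 0 depend on the prior count and are no bound. A sum of 4309817 UMIs stood behind the mural value, for which 3 counts correspond to 0.696 CPM. In single libraries this limit was 1.92 to 12.3 CPM, so that a level like the endothelial one of the stellate, coeliac or lumbar library would not have been detectable in their mural cells. Chrm1 and Chrm2 gave differences of 0.20 (adjusted p = 0.87) and -0.85 (adjusted p = 0.50) in the same test, on few UMIs.

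In pelvic_1 the endothelial cells formed 2 clusters. Chrm3 stood at 7.64 CPM (4.66 to 11.8) in 183 cells led by Gpihbp1, a capillary gene, and at 23.0 CPM (12.2 to 39.3) in 41 cells led by Gkn3, Sox17 and Gja4, which are genes of arterial endothelium. The intervals did not overlap, but both clusters came from 1 library, and the clusters of the other libraries did not divide their endothelial cells.

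**Figure D1:**
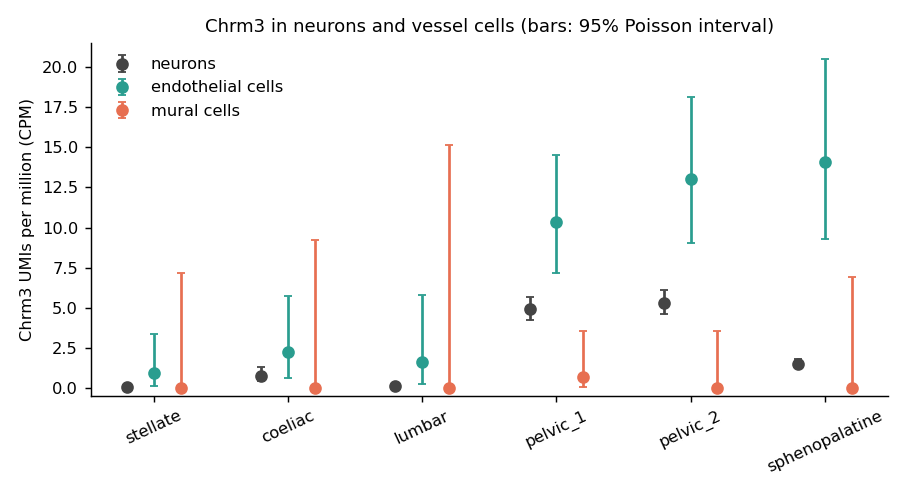
Chrm3 level (CPM, vertical axis) in neurons, endothelial cells and mural cells of each of the 6 libraries (horizontal axis), with bars for the exact 95% Poisson interval. The endothelial point lies above the neuronal point in every library, and mural cells are at 0 in 5 of 6 libraries, with wide upper limits.

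Glia held 5 Chrm3 UMIs in all, 4 of them in pelvic_1, and were at 0 in 4 libraries. Neurons exceeded glia by 4.03 ± 0.78 (log2, adjusted p = 5e-05), mural cells by 3.61 ± 1.38 (adjusted p = 0.024) and fibroblasts by 2.35 ± 0.68 (adjusted p = 0.0032). The difference from mural cells did not pass with DESeq2 (1.40, adjusted p = 0.21), without the library block or in either round alone, and neither did that from fibroblasts in round 2 alone (adjusted p = 0.12). Over 15 alternatives each, the adjusted p ranged from 0.019 to 0.21 for mural cells and from 0.00086 to 0.12 for fibroblasts. Both pelvic libraries carried these tests. Without either of them Chrm3 fell under the count minimum, and with the minimum lifted the difference from mural cells had an adjusted p of 0.11 without pelvic_1 and 0.17 without pelvic_2, and that from fibroblasts 0.046 and 0.055. The differences of Chrm3 between neurons and glia, between neurons and endothelial cells and between mural and endothelial cells passed in both cases.

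The counts of calls must be read against the whole transcriptome, since most genes differ between cell classes. Of 14344 genes tested, 75.1% passed an adjusted p of 0.05 between neurons and glia (41.4% higher in neurons, 33.7% higher in glia). The shares were 76.8% against endothelial cells (40.7% and 36.2%), 67.9% against mural cells (39.8% and 28.2%) and 76.7% against fibroblasts (40.8% and 35.9%). Between mural and endothelial cells they were 42.2% in all, 18.0% higher in mural cells and 24.2% higher in endothelial cells. Of the 5 receptors, 3 passed the filter on low counts, and all 3 were called higher in neurons than in glia, mural cells and fibroblasts. Over all genes the median log2 difference between neurons and glia was 0.128. Shares of genes with no overlap between classes, or with the same direction in every library, were not computed for any contrast. The class contrasts share the same neuron sums and are not independent of each other. With the library as a block, the p-values rest on how the class differences vary between these 6 libraries, pooled over the 5 classes.

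**Figure D2:**
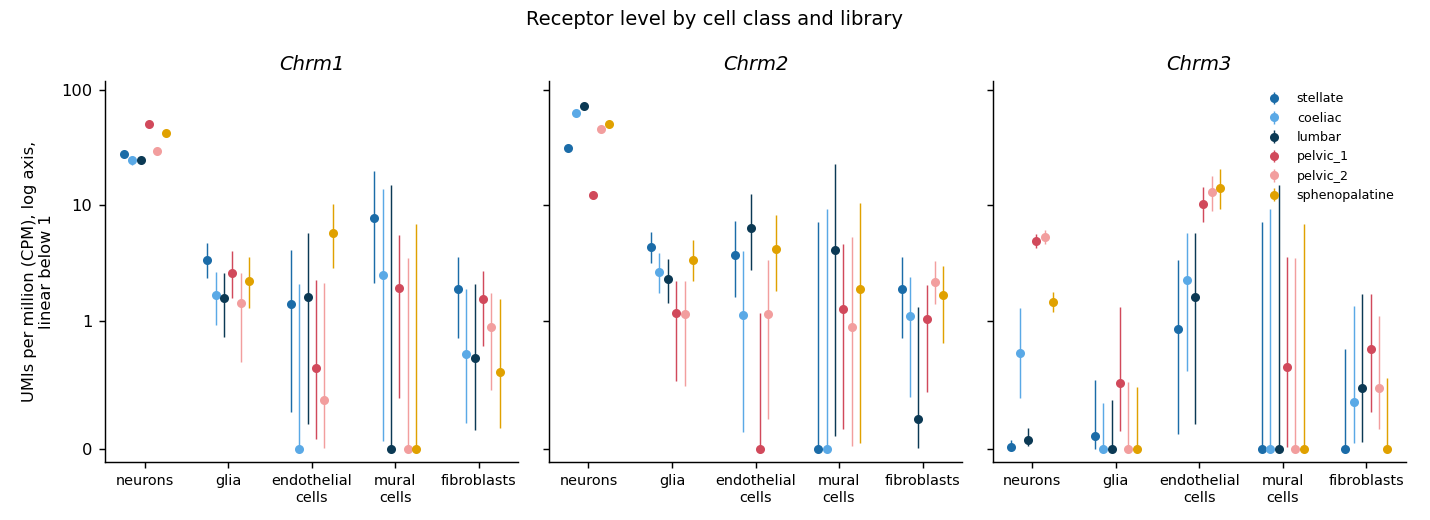
Level of Chrm1, Chrm2 and Chrm3 (CPM, vertical axis, logarithmic above 1 and linear below) in 5 cell classes (horizontal axis), with 1 point per library and bars for the exact 95% Poisson interval. For Chrm1 and Chrm2 the neurons of all 6 libraries lie above every other class, and for Chrm3 the endothelial cells lie above the neurons of the same library.

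Chrm4 and Chrm5 were close to absent from the counts. Chrm4, a second Gi-coupled receptor, had 15 UMIs in neurons, each in a different neuron, and 0 in glia, endothelial cells, mural cells and fibroblasts. Of these 15, 11 fell in pelvic_2, the library with the highest median of UMIs per neuron, in 2.73% of its neurons (Wilson 95% interval 1.53% to 4.82%). In that library 6 of the 81 neurons of the Grp cluster described below had a Chrm4 UMI. Pelvic_1 had 1 Chrm4 UMI, at a median depth of 37696 UMIs per neuron against 104751 in pelvic_2. In CPM, Chrm4 stood at 0.285 in pelvic_2, 0.0247 in pelvic_1 and 0.0281 in lumbar neurons, the last at a median depth of 73377. Chrm5 had 4 UMIs in neurons, 2 in fibroblasts and 1 in mural cells, and no class stood out.

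Among ganglia, neurons of every library had both main receptors. Of the neurons, 47.5% (stellate) to 77.6% (sphenopalatine) had a Chrm1 UMI, and 30.8% (pelvic_1) to 82.7% (lumbar) had a Chrm2 UMI. These shares move with depth. After each neuron was thinned to 4000 UMIs, 5.05% to 16.9% had a Chrm1 UMI and 5.81% to 21.9% a Chrm2 UMI. In glia, at a lower depth, 1.10% to 1.89% of cells had a Chrm1 UMI and 0.521% to 2.90% a Chrm2 UMI, before thinning.

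Within each round the pelvic ganglion could be set against the others. In round 1 the order for Chrm1 was stellate (27.9 CPM, interval 26.8 to 29.1), sphenopalatine (42.5, 41.1 to 44.1) and pelvic_1 (51.3, 49.1 to 53.5), with intervals that did not overlap. In round 2 coeliac and lumbar neurons had overlapping intervals (22.4 to 27.1 and 23.6 to 26.0), and pelvic_2 stood above them at 29.5 (27.9 to 31.3). For Chrm2 the pelvic ganglion was lowest in both rounds. Pelvic_1 neurons (11.3 to 13.5 CPM) lay below stellate (30.6 to 33.1) and sphenopalatine neurons (48.9 to 52.1), and pelvic_2 neurons (43.7 to 48.0) lay below coeliac (60.3 to 67.9) and lumbar neurons (70.9 to 74.9). Such an order is common among the 9477 genes with at least 10 CPM in the neurons of any library. Of these, 19.6% were lowest in pelvic neurons in both rounds, as Chrm2 was, and 16.6% were highest, as Chrm1 was. Chrm3 was also highest in both, but with at most 5.31 CPM in neurons it was not among these genes.

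In round 2 the pelvic place in the orders of Chrm1 and Chrm2 was kept in means over cells, which weight each neuron alike. Chrm1 then stood at 31.6 CPM in pelvic_2, 21.5 in coeliac and 24.3 in lumbar neurons, and Chrm2 at 45.2, 58.7 and 65.4. After thinning, Chrm1 in pelvic_2 was 0.878 times its lumbar level and Chrm2 was 1.01 times its coeliac level. These ratios rested on 37 against 94 UMIs of Chrm1 and 77 against 44 of Chrm2. No interval was computed for them, so they do not decide whether the orders hold after thinning. The order of Chrm3 was steep in both rounds. In round 1 it was stellate, sphenopalatine, then pelvic_1, from 0.0003 to 0.0673 CPM up to 4.25 to 5.64 CPM, and in round 2 lumbar, coeliac, then pelvic_2, from 0.0228 to 0.164 CPM up to 4.61 to 6.09 CPM.

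**Figure D3:**
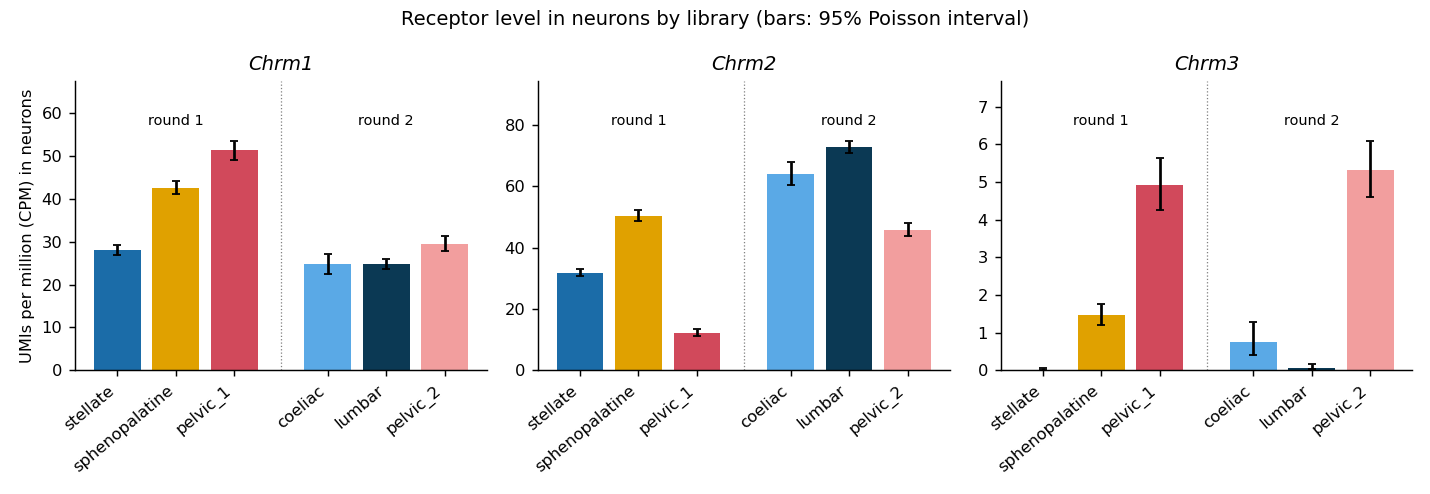
Level of Chrm1, Chrm2 and Chrm3 in neurons (CPM, vertical axes) by library, grouped by sequencing round, with bars for the exact 95% Poisson interval. Pelvic neurons are lowest for Chrm2 and highest for Chrm1 and Chrm3 within each round, and the 2 pelvic libraries differ for Chrm1 and Chrm2.

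The pelvic libraries, the only replicates of a ganglion, differed in Chrm1 and Chrm2 over all neurons, and for Chrm3 the interval of their ratio included 1. In neurons the mean was 5.11 ± 0.29 CPM (SD, n = 2) for Chrm3, 40.4 ± 15.3 for Chrm1 and 29.0 ± 23.6 for Chrm2. The ratio of pelvic_2 to pelvic_1 was 1.08 (95% interval 0.887 to 1.32) for Chrm3, 0.577 (0.536 to 0.620) for Chrm1 and 3.71 (3.36 to 4.11) for Chrm2. Only 4.09% of 9477 genes had over 2 times their pelvic_1 level in pelvic_2 neurons. The Chrm2 ratio lay between 2.71 and 7.36 in 6 clusters of pelvic neurons taken apart, so that it was present within each of them. The Chrm1 ratio lay between 0.541 and 0.681 in 5 of these clusters and was 0.928 (0.673 to 1.27) in the P3-like cluster. The Chrm3 ratio was 0.541 (0.333 to 0.858) in the P2-like and 1.89 (1.12 to 3.24) in the P3-like cluster, so that Chrm3 differed in opposite directions within clusters. Chemistry, sequencing facility, depth and dissection all differed between the libraries and cannot be told apart.

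Single neurons could hold UMIs of both Chrm1 and Chrm2. A UMI of both was found in 28.6% of stellate, 54.7% of coeliac, 67.4% of lumbar, 23.2% of pelvic_1, 61.3% of pelvic_2 and 61.5% of sphenopalatine neurons. Whether this exceeds the share implied by the separate shares of Chrm1 and Chrm2 was not tested, so these values do not show a preference for the same neurons. A UMI of any of the 5 receptors was found in 65.1% of stellate neurons, 82.5% of coeliac, 88.5% of lumbar, 85.1% of pelvic_1, 84.6% of pelvic_2 and 92.5% of sphenopalatine neurons. The joint share follows depth as well as expression, and after thinning it was 0.459% to 2.74%. Of the UMIs of Chrm1 and Chrm2 together, Chrm1 made up 46.8% in stellate, 27.8% in coeliac, 25.4% in lumbar, 80.6% in pelvic_1, 39.2% in pelvic_2 and 45.7% in sphenopalatine neurons. The share of pelvic_1 stood apart from all others, and its replicate pelvic_2 was among them.

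The receptors also varied among the clusters of 1 ganglion. In the stellate ganglion Chrm2 ranged from 12.1 to 60.0 CPM over 9 clusters, in the lumbar chain from 26.4 to 141 CPM over 6 and in the sphenopalatine ganglion from 29.9 to 93.1 CPM over 11. Chrm1 ranged from 7.55 to 41.8, from 8.44 to 30.9 and from 31.2 to 56.3 CPM over the same clusters. Chrm3 was at most 0.120 CPM in a stellate cluster and 0.183 in a lumbar one, but reached 3.16 CPM in the sphenopalatine and 1.73 CPM in the coeliac ganglion. The lowest values of Chrm1 and Chrm2 in the stellate ganglion belonged to its shallowest cluster, with a median of 9122 UMIs.

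The highest Chrm2 value of the stellate and of the lumbar libraries was that of their cholinergic cluster. These neurons form a minority of the sympathetic chain, and had the vesicular acetylcholine transporter Slc18a3 at 276 CPM (60 stellate neurons) and 327 CPM (64 lumbar neurons), against 2.77 and 11.7 CPM in the noradrenergic neurons of the same libraries. Both clusters also kept noradrenergic markers. Th stood at 426 and Dbh at 664 CPM in the stellate one, and at 17.6 and 558 CPM in the lumbar one. They were therefore cholinergic by the marker rule and mixed in their markers. Chrm2 stood at 60.0 CPM in the cholinergic and 30.9 CPM in the noradrenergic neurons of the stellate ganglion. It stood at 141 and 68.9 CPM in the lumbar chain, at 13.6 and 4.93 in pelvic_1, and at 49.4 and 14.8 in pelvic_2. Cholinergic neurons were thus higher in 4 of 4 libraries that held both kinds, by ratios of 1.94, 2.04, 2.76 and 3.35. The share of all genes higher in all 4 was not computed. On the noradrenergic side stood the shallowest stellate cluster, of 182 neurons, with 12.1 CPM of Chrm2. Vip, Cartpt and Sst were among its leading genes as among those of the cholinergic cluster, and its Slc18a3, at 17.6 CPM, was the highest of the noradrenergic stellate clusters. With these neurons counted as cholinergic the stellate ratio was 1.24 instead of 1.94.

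In the edgeR test over these 4 libraries, Chrm2 was 1.26 ± 0.18 higher (log2, SE) in cholinergic neurons, with an adjusted p of 0.016. Of 14131 genes, 5.97% passed, 3.45% higher in cholinergic and 2.53% higher in noradrenergic neurons, and Chrm2 was the only receptor among them. The call was lost without pelvic_1, where the difference was 1.23 and the adjusted p 0.080, and without the library block (1.08, adjusted p = 0.67). It was also lost with the shallowest stellate cluster counted as cholinergic (1.09, adjusted p = 0.087), and was kept with that cluster left out (1.25, adjusted p = 0.017). Over 15 alternatives the adjusted p ranged from 1.2e-07 to 0.67. Chrm1 differed by 0.64 ± 0.30 (adjusted p = 0.27). Its ratios were 0.896 (0.688 to 1.15) in the stellate, 1.18 (0.969 to 1.43) in the lumbar, 3.13 (2.57 to 3.84) in pelvic_1 and 1.80 (1.41 to 2.33) in pelvic_2, with intervals that included 1 in both sympathetic libraries and not in the pelvic ones. Chrm3 differed by -0.46 ± 0.37 (adjusted p = 0.51).

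**Figure D4:**
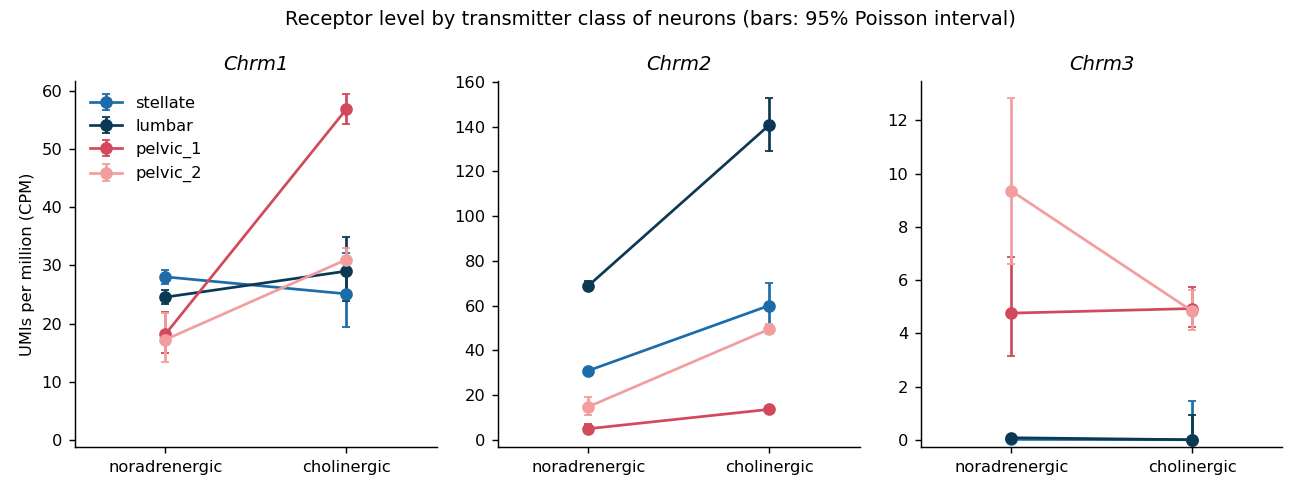
Level of Chrm1, Chrm2 and Chrm3 (CPM, vertical axis) in the noradrenergic and the cholinergic neurons of the stellate, lumbar, pelvic_1 and pelvic_2 libraries, with bars for the exact 95% Poisson interval. In the 4 libraries with both kinds, Chrm2 is higher in cholinergic neurons.

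All neuron clusters of the coeliac library were noradrenergic and all those of the sphenopalatine library cholinergic, so that these ganglia gave no contrast. Their Chrm2 levels of 64.0 and 50.5 CPM came from different rounds. Within the round of pelvic_1, cholinergic neurons did not share the same level of Chrm2. They had 13.6 CPM in pelvic_1, 50.5 in the sphenopalatine and 60.0 in the stellate library. Across both rounds cholinergic neurons reached 141 CPM, in the lumbar chain, and noradrenergic neurons ranged from 4.93 to 68.9 CPM. Chrm2 in pelvic_2 neurons was 3.71 times its pelvic_1 level, so the spread across rounds cannot be assigned to the ganglion.

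Levels of Chrm1 and Chrm2 differed among the clusters of pelvic neurons. Joint clustering of both pelvic libraries gave 7 clusters, of which 5 could be named after the clusters P1 to P4 of the study by their marker genes. The 341 P2-like neurons, led by Grp (gastrin-releasing peptide), had the highest Chrm1 of the named clusters, 81.1 CPM (75.9 to 86.5) in pelvic_1 and 49.0 CPM (44.3 to 53.9) in pelvic_2. Their Chrm2 was 2.04 CPM (1.29 to 3.06) and 15.0 CPM (12.5 to 17.9). In pelvic_1 a Chrm1 UMI was found in 95.4% of them and a Chrm2 UMI in 7.31%. In pelvic_2, where these neurons were deeper, the shares were 91.4% and 54.3%.

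P1-like neurons had less Chrm1 and more Chrm2 than P2-like neurons in both libraries, with Chrm2 above Chrm1 in pelvic_2 only. They formed one cluster of 333 neurons led by Cartpt, which also had the peptide gene Vip among its leading genes, and one of 210 neurons led by Gng8 and Penk. Chrm1 stood at 34.1 and 23.2 CPM in the Cartpt cluster of pelvic_1 and pelvic_2, and at 39.1 and 21.7 CPM in the Gng8 cluster. Chrm2 stood at 24.6 and 68.0 CPM and at 25.2 and 68.3 CPM. Relative to P1-like neurons, Chrm1 in P2-like neurons was 2.28 times as high in pelvic_1 and 2.18 times in pelvic_2, and Chrm2 was 0.0823 and 0.220 times as high. The ratio of the means of both libraries was 0.183 for Chrm2, and 0.412 after each neuron was thinned. The thinned ratio rested on 3 Chrm2 UMIs in P2-like neurons of pelvic_1 and 12 in those of pelvic_2, and no interval was computed for it.

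Chrm3 separated clusters along another line. The Gng8 cluster had 12.0 CPM (8.94 to 15.8) in pelvic_1 and 10.5 CPM (8.47 to 12.9) in pelvic_2, whereas the Cartpt cluster, named P1-like by the same markers, had 2.70 (1.77 to 3.96) and 2.10 (1.30 to 3.21). The P4-like neurons, led by Aldh1a2, a retinoic acid synthesis enzyme, and Calca, had 0 Chrm3 UMIs in 106 neurons of pelvic_1, where 3 counts correspond to 0.791 CPM, and 3 UMIs in 38 neurons of pelvic_2 (0.752 CPM). They had 45.9 and 24.8 CPM of Chrm1, and 10.0 and 32.1 CPM of Chrm2.

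The noradrenergic P3-like neurons, led by Th, had the lowest Chrm1 of the named clusters, 18.6 and 17.2 CPM. Their Chrm2 was 5.18 CPM (3.47 to 7.44) in pelvic_1, above that of the cholinergic P2-like neurons, and 14.7 CPM (11.2 to 19.0) in pelvic_2, with an interval that overlapped theirs. The higher Chrm2 of cholinergic pelvic neurons was therefore not seen in the P2-like neurons. Chrm3 stood at 4.82 and 9.13 CPM in P3-like neurons, and noradrenergic neurons of the stellate and lumbar libraries were at 0.0125 and 0.0744 CPM. The coeliac neurons, all called noradrenergic, lay between these and the P3-like neurons at 0.748 CPM.

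Of the 2 clusters that stayed unnamed, one of 202 neurons was led by genes that included the glial genes Apoe and Fabp7 and had 70.5 and 38.8 CPM of Chrm1, 11.5 and 52.4 of Chrm2 and 5.19 and 6.78 of Chrm3. The other, of 25 neurons, was led by the collagen gene Col1a1. Clusters of the same cells are not replicates, and the differences between them are given without a test.

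**Figure D5:**
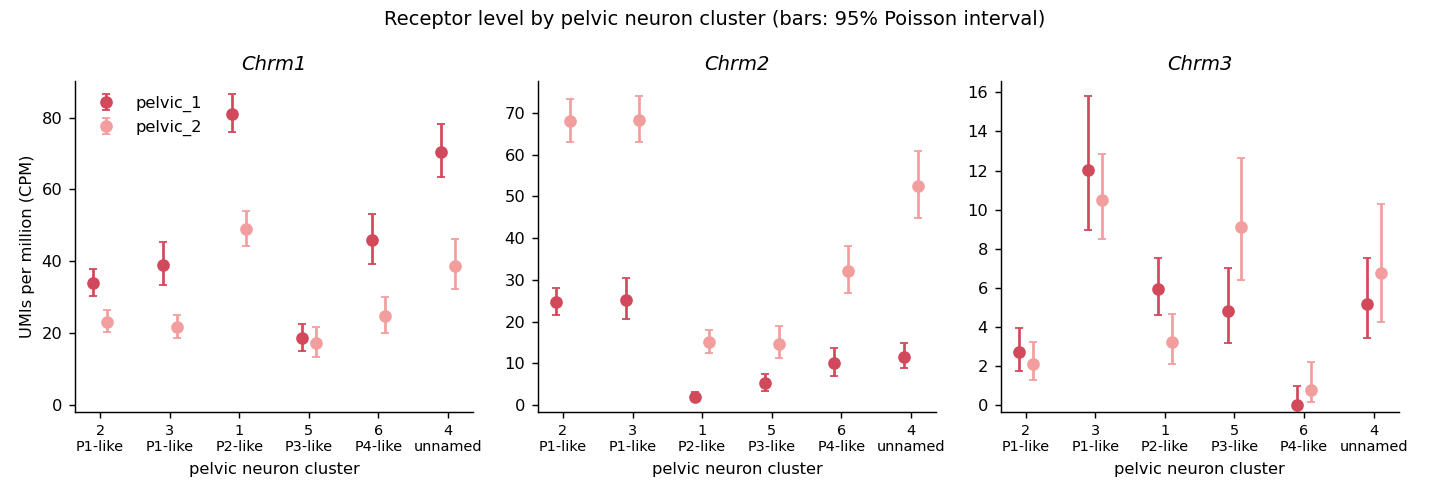
Level of Chrm1, Chrm2 and Chrm3 (CPM, vertical axes) in the pelvic neuron clusters (horizontal axis) of pelvic_1 and pelvic_2, with bars for the exact 95% Poisson interval. P2-like neurons have high Chrm1 and low Chrm2, P1-like neurons high Chrm2, and P4-like neurons hardly any Chrm3, in both libraries.

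Over the 30 sums of library and class, the genes most like Chrm1 among 12729 were Rgs11 (Pearson's r of log2 levels 0.982), Ywhag (0.978) and Carmil2 (0.976). Those most like Chrm2 were Tmem169 (0.957), Nyap2 (0.957) and Dlgap2 (0.952). Those most like Chrm3 were Gm47405 (0.917), Wipf3 (0.843) and Lcn2 (0.843), and Gm47405 lies within Chrm3 on the same strand, so that their reads may not be separable. Chrm1 and Chrm2 had an r of 0.861 with each other, and Chrm3 had 0.133 with Chrm1 and 0.0318 with Chrm2. The sums share libraries and classes, and these values are descriptions.

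The 41 genes through which muscarinic receptors are known to act or be turned off comprise G protein subunits, phospholipases, receptor kinases, arrestins, Rgs proteins, channels and calcium release receptors. Of these, 37 passed the filter, and 25 were higher in neurons than in glia, 4 lower and 8 not called. The median log2 difference of the 37 genes was 1.11, against 0.128 over all genes. Of all genes tested, 41.4% were higher in neurons and 33.7% in glia. Kcnq3, a subunit of the M-type channel that Gq-coupled receptors close, was 4.68 ± 0.30 higher (adjusted p = 5.9e-13), at 38.9 to 271 CPM in neurons. Cacna1b, the N-type calcium channel that Gi and Go proteins restrain, was 4.54 ± 0.28 higher (adjusted p = 3e-13). Rgs8, which speeds the turn-off of G proteins, was 4.44 ± 0.40 higher (adjusted p = 2.6e-09).

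Of the 4 genes lower in neurons, the 3 with the largest difference were a receptor kinase and 2 calcium release receptors. Itpr3, a receptor that releases calcium from stores, differed by -5.52 ± 0.33 between neurons and glia (log2, adjusted p = 1.5e-13), at 0.366 to 2.14 CPM in neurons and 36.4 to 75.4 CPM in glia. Grk5, a receptor kinase, differed by -1.40 ± 0.23 (adjusted p = 5.3e-06), and Itpr2 by -0.92 ± 0.27 (adjusted p = 0.0034), which in round 1 alone was -0.37 (adjusted p = 0.39). Gnaq, the Gq subunit itself, was present in all classes, at 164 to 236 CPM in neurons and 33.7 to 189 CPM in the others.

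Against endothelial cells, 23 of the 37 genes were higher in neurons and 9 lower. Against mural cells these counts were 24 and 9, and against fibroblasts 24 and 7. Over all genes the shares higher and lower in neurons were 40.7% and 36.2%, 39.8% and 28.2%, and 40.8% and 35.9%, in the same order. In the vessels, 11 of the 37 genes were higher in mural and 12 in endothelial cells, and 14 were not called. Their median log2 difference was -0.13, against -0.07 over all genes. Of all genes, 18.0% were higher in mural and 24.2% in endothelial cells. Nos3, the endothelial nitric oxide synthase, differed by -5.68 ± 0.51 between mural and endothelial cells (adjusted p = 2.2e-09), and stood at 32.2 to 73.0 CPM in endothelial cells. Itpr3 and Itpr2 were also lower in mural cells, with differences of -2.76 ± 0.52 (adjusted p = 0.00011) and -2.38 ± 0.30 (adjusted p = 6.2e-07). The third calcium release receptor of the list, Itpr1, differed by -0.19 ± 0.29 (adjusted p = 0.65), and was named after its values were seen.

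The genes higher in mural cells included the cation channel Trpc6, by 3.66 ± 0.60 (adjusted p = 2.3e-05), and the adenylyl cyclase Adcy5, by 2.91 ± 0.47 (adjusted p = 1.9e-05). Between cholinergic and noradrenergic neurons, 6 of 38 tested genes of the list were higher in cholinergic neurons, 2 lower and 30 not called, with a median log2 difference of 0.22 against -0.02 over all genes. The 6 were Adcy2, Arrb1, Arrb2, Plcb1, Prkce and Rgs2, and the 2 were Prkcb and Rgs4. Of all genes, 3.45% were higher in cholinergic and 2.53% in noradrenergic neurons.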

How the data were processed

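Cells of whole ganglia from postnatal day 5 mice were sequenced as 6 libraries with 10x Genomics droplet reagents. The deposited values are counts of UMIs per gene and droplet, made by the authors with Cell Ranger 6.0.1 on the mm10 genome per the submitters' processing notes, as raw numbers for the droplets it took as cells. Deposited feature and barcode lists were used for names only. The annotation used for counting is not given in the sources used here. Positions come from GENCODE M21 on GRCm38, in which the identifiers of all 5 receptors matched. The receptors and all gene lists were chosen with earlier results of these data known.

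The study's limits were kept, more than 1500 but fewer than 11000 genes per droplet and less than 15% of UMIs from mitochondria. Each library was clustered on 2000 variable genes without the receptors and the 41 signalling genes, with 30 principal components, 20 neighbours and Leiden resolution 1 (Python 3.11.15, numpy 2.4.6, scipy 1.17.1, scikit-learn 1.9.0, python-igraph 0.11.9). Clusters were named by marker lists, and 615 cells in clusters led by genes of another class, with markers of a second class or with too few markers stayed unnamed. Neurons were called cholinergic or noradrenergic by cluster, and both pelvic libraries were clustered together at resolution 0.3. Simulated doublets were scored over 30 neighbours, and cells with a score over 0.5 were kept in the main result and removed in an alternative. CPM divides a gene's UMIs by all UMIs of the class. Intervals are exact Poisson for CPM, Wilson for shares and exact conditional for ratios, at 95%, and a count of 0 is given with the level of 3 counts. Counting intervals do not cover differences between animals.

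Counts were summed per library and class with at least 20 cells and tested with edgeR 4.0.16 (limma 3.58.1, R 4.3.3), TMM, filterByExpr, library as a block and Benjamini-Hochberg adjustment over all genes tested, threshold 0.05. The procedure was also run on simulated counts in which libraries differed in depth only, so that the library block was not put to a test. No test was made between ganglia. The labels do not say how many pups stood behind a library. Named genes are the 5 receptors, the 3 called signalling genes with the largest rise and fall in neurons minus glia and in mural minus endothelial cells, those with a described channel or ligand-side role, and the 3 genes most correlated with each receptor, from log2(CPM + 5) over genes with at least 10 CPM. Gnaq and the genes called by transmitter were named after their values were seen.

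Alternatives were DESeq2 1.42.0 with its size factors, no filter, no block, each round alone, sums of at least 50 cells, another rule for classes and transmitter, doublets removed, thinning to 4000 UMIs (2000 outside neurons), a minimum of 2 UMIs, means over cells, resolution 0.6 and each library left out. Counting unnamed neuron-marker clusters as neurons, leaving out a shallow pelvic cluster, leaving out a shallow stellate cluster or counting it as cholinergic, and leaving out a pelvic library with no filter were chosen after seeing the data. The Cre driver and a few genes are not reported here.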

Additional observations from a re-analysis of the deposited data

Results flagged for a closer look

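Chrm1 stood at 5.75 CPM in endothelial cells of the sphenopalatine library (11 UMIs), far from the other 5 libraries (0 to 1.60 CPM), with a gap of 0.721 of the whole range. These UMIs lay in 6 of 130 cells, and as a mean over cells the value was 3.01 CPM, below the 3.48 CPM of pelvic_2, so that the library did not stand apart on that scale. Of 11 groups examined in this way it was the only one to stand out. Chance alone marks a single group about 1 time in 20, so that 1 among 11 groups is no excess. Clusters left without a class also held receptors above the level of glia in their library. Among those with all 10 neuron markers, the sphenopalatine cluster of 201 cells had 55.0 CPM of Chrm1 and 69.6 CPM of Chrm2, the stellate cluster of 55 cells, led by haemoglobin genes, 24.8 and 20.7 CPM, and the lumbar cluster of 80 cells 7.87 and 25.01 CPM. The coeliac cluster of 64 cells, led by Chga, had 3.85 CPM of Chrm2 from 6 UMIs. Clusters led by Cfap61 and C2cd4b, with Chga among their leading genes, had 5.55 CPM of Chrm1 in pelvic_1 (6 UMIs in 156 cells) and 7.75 CPM in pelvic_2 (5 UMIs in 33 cells).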

How the results depend on the processing

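Of 442 alternative values of the main results, 400 were counted as unchanged, by rules that differed by kind of result. Differences of single genes had to keep their direction and side of the threshold. Numbers of called genes had to stay close to the main number. Ratios of levels had to stay within the counting interval or the SD of the main ratio. Of the others, 24 moved in size, 14 lost their call and 4 changed direction. Chrm1 and Chrm2 remained higher in neurons than in every other class in all alternatives run. Pairing by replicate number was not possible, because only the pelvic ganglion has a second replicate number. Classes of 1 library were paired by the library block. Chrm3 in neurons minus endothelial cells missed the threshold without the library block (-1.70) and in round 2 alone (-1.64). Chrm3 in neurons minus mural cells missed it with DESeq2 (1.40), without the block (3.34), in round 1 (2.82), in round 2 (8.00) and with a pelvic library left out (leave-one-out range 2.80 to 7.61), in neurons minus fibroblasts in round 2 (1.97) and without pelvic_2 (range 1.85 to 2.81), and in mural minus endothelial cells in round 2 (-9.64). Chrm1 in mural minus endothelial cells, not called, changed sign without the stellate (-0.60) or first pelvic library (-0.0143, range -0.60 to 1.42). Genes called between mural and endothelial cells fell from 6049 to 3697 in round 2. Those called by transmitter, 844, numbered 1800 with DESeq2, 1377 without a filter, 281 without the block, 187 with at least 50 cells, 481 with the shallow stellate cluster counted as cholinergic and 127 to 667 with a library left out (634 and 846 with a pelvic library left out and no filter). Chrm2 by transmitter gave 1.08 without the block, 1.09 with that cluster as cholinergic and 1.06 to 1.41 with a library left out, with or without the filter.

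Thinning moved pelvic over sphenopalatine Chrm1 to 1.12, pelvic over lumbar Chrm1 to 0.878 (reversed), pelvic over stellate Chrm2 to 0.540 and pelvic over coeliac Chrm2 to 1.01 (reversed). A minimum of 2 UMIs gave 1.03 for pelvic over sphenopalatine Chrm1, 0.478 and 0.836 for pelvic over stellate and coeliac Chrm2, and 14.9 for pelvic over coeliac Chrm3. The mean over cells gave 1.30 for pelvic over lumbar Chrm1 and 0.464 for pelvic over stellate Chrm2. Pelvic over coeliac Chrm2 was 0.776 without doublets and 0.775 with the unnamed neuron-marker clusters. Between pelvic clusters, thinning gave 3.19 and 0.412 for Chrm1 and Chrm2 in P2-like over P1-like and 0.422 for Chrm1 in P3-like over P1-like neurons, resolution 0.6 gave 2.15 for Chrm1 in P2-like over P1-like neurons, and Chrm2 there was 0.0823 to 0.220 with a pelvic library left out. The cause of these shifts was not tested. In vessels, few UMIs of mural cells limited the values.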
